A study of Mus musculus with 9 samples.

Results

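Transcripts of 10 hydroxysteroid dehydrogenase genes were followed in mouse colonic mucosa: the 3-beta enzymes Hsd3b2, Hsd3b3 and Hsd3b7, and the 17-beta enzymes Hsd17b2, Hsd17b4, Hsd17b7, Hsd17b10, Hsd17b11, Hsd17b12 and Hsd17b13. The genes were taken as a named list, drawn up with earlier results of these data known. They are 10 of the 18193 genes that the arrays measure with a probe set of their own. All 10 passed the filter on low values, at least 3 arrays at a log2 value of 4, which 11273 genes passed. Of their 20 probe sets, 17 passed. The mucosa came from male mice aged 6 weeks on a C57BL/6 background, with 3 arrays each from wild-type mice (WT), from mice without the gastrin gene (Gas-/-, here GasKO) and from mice with an hGAS transgene (hGAS). The promoter of the transgene and the way the gastrin gene was disrupted are not given in the sources used here. The labels number the replicates without saying that each was a separate mouse, so each p-value speaks only of the spread among these arrays, which may be partly technical.

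Hydroxysteroid dehydrogenases move hydrogen between a steroid and a nicotinamide cofactor, turning a hydroxyl group into a keto group or back. In steroid-producing glands the 3-beta enzymes make active hormones from their precursors, and 17-beta enzymes raise or lower the potency of oestrogens and androgens. Several proteins with the 17-beta name act mainly on other lipids: they serve cholesterol synthesis, fatty acid elongation, peroxisomal and mitochondrial oxidation, or sit on lipid droplets. The gut epithelium is known for enzymes that inactivate steroids.

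In GasKO mucosa 4 of these 10 genes changed at the threshold used, an adjusted p under 0.05 in limma. Hsd3b3 was 8.37-fold lower than in WT, and Hsd3b2 fell to near background, by 8.80-fold as measured and by 3.17-fold with values under log2 4 set to 4. Hsd17b13 rose from near background, by 39.2-fold as measured and by 30.2-fold with that floor, and Hsd17b11 was 1.19-fold higher. In hGAS mucosa Hsd3b2 was 2.40-fold higher than in WT, and Hsd17b13 4.97-fold higher as measured and 3.83-fold with the floor. The folds of Hsd17b13 and that of Hsd3b2 in GasKO thus depend on the background level. Hsd17b13 was thus above WT in both altered genotypes, while Hsd3b2 was below WT in GasKO and above it in hGAS. The GasKO and hGAS comparisons share the 3 WT arrays, so they are not independent of each other.

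**Figure D1:**
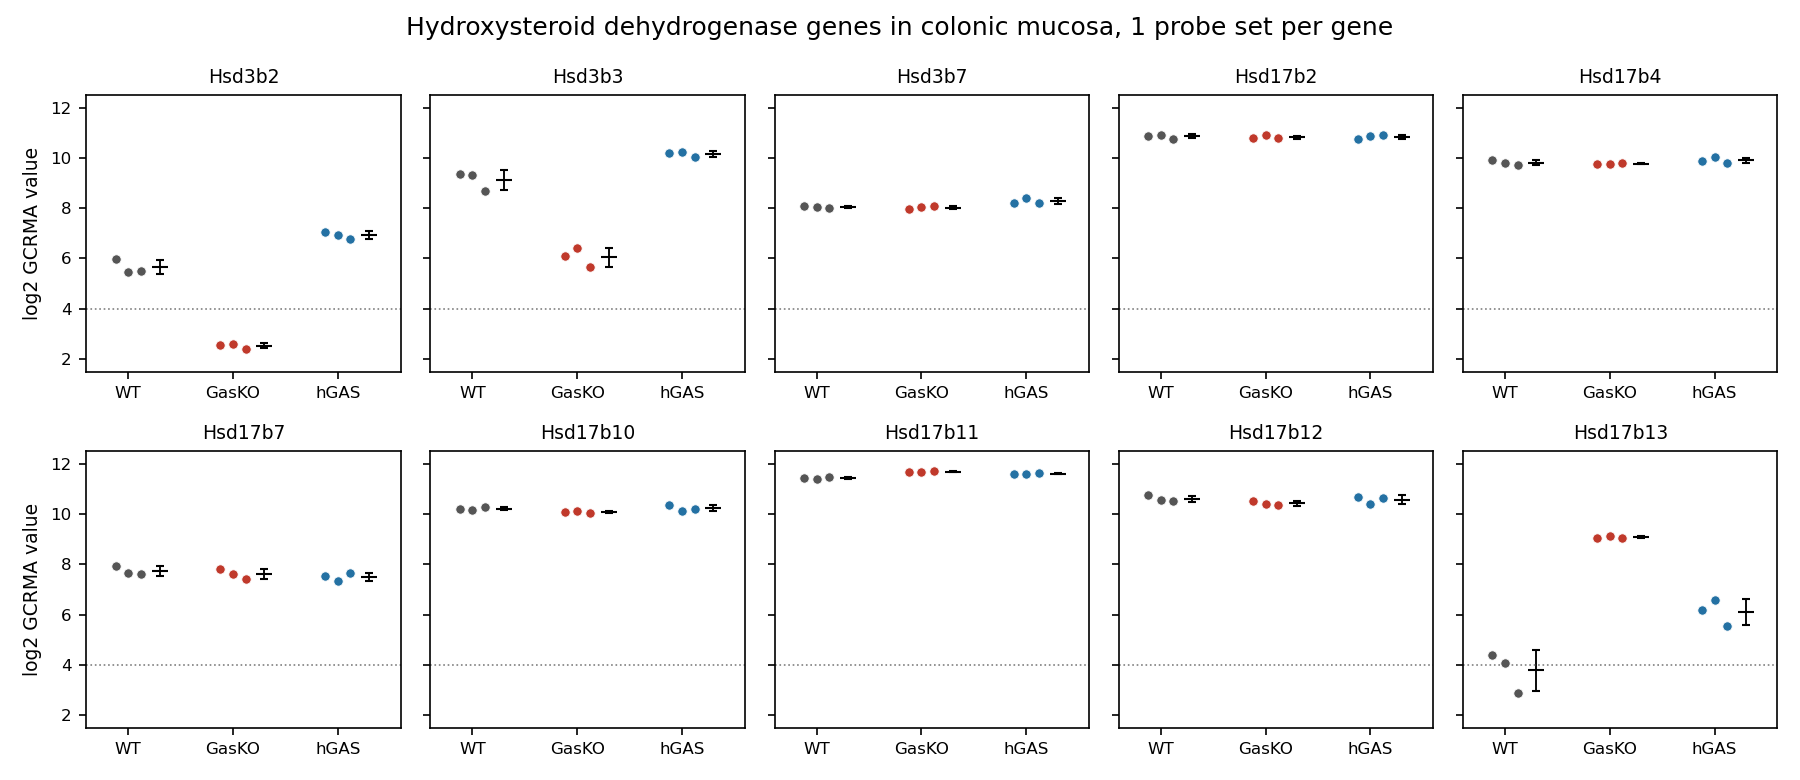
Log2 GCRMA value (vertical axis) of the probe set that stands for each of the 10 genes, with 1 point per array, black bars for the mean ± SD of 3 arrays, a dotted line at log2 4, and the genotypes WT, GasKO and hGAS along the horizontal axis. Hsd3b2 and Hsd3b3 are lowest in GasKO and highest in hGAS, Hsd17b13 is highest in GasKO and lowest in WT, and the other panels span less than 1 log2 unit.

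The share of calls among all genes sets the scale for these counts. In GasKO against WT 2 of the 10 genes rose and 2 fell, where 12.1% of all genes tested were called. In hGAS against WT 2 were called, both higher, where 1.16% of all genes were called. In hGAS against GasKO 3 rose and 1 fell, where 16.6% of all genes were called. At least 2-fold differences were found for 3 of the 10 genes in each comparison, against 2.41%, 0.905% and 2.99% of all genes. The arrays of the 2 genotypes did not overlap for 5 genes in GasKO against WT (31.1% of all genes), for 5 in hGAS against WT (17.7%) and for 7 in hGAS against GasKO (36.7%). The median log2 difference of the 10 genes was -0.077, 0.135 and 0.135 in the same order, against 0.01, 0.01 and 0.00 over all genes. A few members carried the large differences. The list was drawn up with earlier results of these data known, so these counts describe it and test nothing.

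Arrays were alike in level: medians lay between 4.13 and 4.16, and 50.8% to 51.0% of probe sets reached log2 4. The first principal component, with 53.9% of the variance, put the 3 GasKO arrays apart from the other 6. Gast itself was near background in all groups (1.96 in WT, 2.08 in GasKO and 1.95 in hGAS), so it checks neither label. Epithelial markers averaged between 13.25 and 13.40 on every array and none of the 7 was near background. In GasKO against WT 2 of 7 were called higher, where 12.1% of all genes were called. In hGAS against GasKO 2 of 7 were called lower, where 16.6% were called. In bulk tissue, fewer cells of a type and less RNA per cell cannot be told apart.

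The 3-beta enzymes Hsd3b2 and Hsd3b3 lie next to each other on chromosome 3, and Hsd17b11 and Hsd17b13 are neighbours on chromosome 5. The promoters of these 4 genes are shown because the members of each pair moved in the same direction in GasKO mucosa. They come from RefSeq on GRCm38.p6, which held 8 of the 10 genes, and each runs 5′ to 3′ on the gene's own strand, from 250 bases before the start to 50 bases after it. All 4 genes lie on the minus strand. Capitals mark AGATAA, a site that GATA factors bind, and AGGTCA, the core site of nuclear receptors, which reads TGACCT on the opposite strand. Both strands were searched, also for TATAAA (the TATA box) and TTTATG (a CDX2 site), and no 2 of the matches overlap.
Hsd3b2, chr3:98724494-98724793: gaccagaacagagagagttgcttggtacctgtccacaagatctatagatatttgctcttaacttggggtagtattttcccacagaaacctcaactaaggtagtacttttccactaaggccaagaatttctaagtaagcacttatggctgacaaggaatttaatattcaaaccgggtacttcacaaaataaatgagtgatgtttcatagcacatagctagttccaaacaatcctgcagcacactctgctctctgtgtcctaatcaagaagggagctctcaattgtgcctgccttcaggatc
Hsd3b3, chr3:98763079-98763378: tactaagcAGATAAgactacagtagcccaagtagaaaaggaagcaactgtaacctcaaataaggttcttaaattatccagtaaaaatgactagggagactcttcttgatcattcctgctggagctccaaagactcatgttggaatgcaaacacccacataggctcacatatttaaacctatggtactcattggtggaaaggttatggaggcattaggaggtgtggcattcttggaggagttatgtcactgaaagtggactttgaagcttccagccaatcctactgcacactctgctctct
Hsd17b11, chr5:104021747-104022046: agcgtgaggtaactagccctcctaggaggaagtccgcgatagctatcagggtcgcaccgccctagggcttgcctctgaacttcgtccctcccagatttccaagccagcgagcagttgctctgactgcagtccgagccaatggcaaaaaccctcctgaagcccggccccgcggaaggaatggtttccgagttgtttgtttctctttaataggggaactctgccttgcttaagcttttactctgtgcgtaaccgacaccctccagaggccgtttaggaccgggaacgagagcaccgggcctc
Hsd17b13, chr5:103977339-103977638: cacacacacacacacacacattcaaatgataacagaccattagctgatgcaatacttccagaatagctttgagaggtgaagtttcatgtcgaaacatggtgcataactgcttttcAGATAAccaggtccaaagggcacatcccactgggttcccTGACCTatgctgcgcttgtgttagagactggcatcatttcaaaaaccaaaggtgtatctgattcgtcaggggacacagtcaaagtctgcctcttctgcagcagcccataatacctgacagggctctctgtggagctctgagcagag

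With positions counted from the start site, Hsd3b3 has AGATAA at -242, and Hsd17b13 has AGATAA at -135 and TGACCT at -96. The Hsd3b2 and Hsd17b11 windows hold none of the 4 motifs. Matches of this kind are common: of 32851 RefSeq promoters of 300 bases, 13.6% hold TATAAA, 16.3% AGGTCA, 11.2% AGATAA and 11.9% TTTATG. The Hsd3b2 and Hsd3b3 windows were 46.7% identical in a global alignment, within the 43.9% to 49.2% found between promoters of different genes among these 4. Their longest common run, gcacactctgctctct, has 16 bases and starts at position 237 of the Hsd3b2 window and at position 285 of the Hsd3b3 window. RefSeq lists another Hsd3b3 start at chr3:98762361-98762660, whose window is 98.7% identical to the one printed.

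Hsd3b2 encodes a 3-beta dehydrogenase and isomerase, known in the mouse from kidney and liver. Its probe set 1425127_at read 5.99, 5.48 and 5.52 on the WT arrays, 2.58, 2.59 and 2.41 on the GasKO arrays, and 7.07, 6.95 and 6.77 on the hGAS arrays. All GasKO arrays were near background, all hGAS arrays were above all WT arrays, and no groups overlapped. The mean fell from 5.66 ± 0.28 in WT to 2.53 ± 0.10 in GasKO (SD, n = 3 each), a log2 difference of -3.14 (SE 0.14, adjusted p = 1.04e-06). It rose to 6.93 ± 0.15 in hGAS, a log2 difference of 1.26 from WT (SE 0.14, adjusted p = 0.0052). Because the GasKO mean is under log2 4, the size of the fall depends on the background level: with values under 4 set to 4, it was -1.66 (adjusted p = 4.8e-05).

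Hsd3b3 encodes a close relative of the same enzyme. Its probe set 1431916_at read 9.36, 9.33 and 8.67 in WT, 6.09, 6.42 and 5.66 in GasKO, and 10.20, 10.23 and 10.04 in hGAS. The groups did not overlap, and unlike Hsd3b2 all arrays were above log2 4. The mean went from 9.12 ± 0.39 in WT to 6.05 ± 0.38 in GasKO, a log2 difference of -3.06 (SE 0.21, adjusted p = 1.6e-05). In hGAS it was 10.15 ± 0.10, and the log2 difference of 1.03 from WT, a 2.05-fold higher value, missed the threshold (95% interval 0.56 to 1.51, adjusted p = 0.0594). With the filter on low values at log2 5, which tests fewer genes, the same difference had an adjusted p of 0.0497. Of 24 alternatives, 21 left it uncalled in limma. With 1 array left out the adjusted p ran from 0.056 to 0.174. It was 0.119 with probe sets averaged and 0.104 with a fit to the 6 arrays compared.

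A second probe set of Hsd3b3, 1427377_x_at, read 9.51, 9.31 and 9.21 in WT, 4.54, 5.26 and 4 in GasKO, and 10.29, 10.21 and 10.10 in hGAS. It showed the same order of genotypes with a larger fall in GasKO, by 4.74 on the log2 scale (adjusted p = 2.92e-06 over all probe sets), and a difference of 0.86 in hGAS (adjusted p = 0.16). A further probe set, 1460232_s_at, is annotated to Hsd3b6, Hsd3b3 and Hsd3b2 together and can be read for none of them alone. It read 9.97, 9.69 and 9.36 in WT, 5.36, 5.69 and 5.06 in GasKO, and 10.64, 10.75 and 10.43 in hGAS. The genotypes again stood in the order GasKO, WT, hGAS, with log2 differences of -4.30 in GasKO (adjusted p = 7.55e-07) and 0.93 in hGAS (adjusted p = 0.0578). Signal from near-identical copies cannot be separated by such probe sets, and Hsd3b6 has no probe set of its own here.

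Of the other 3-beta genes beside this pair, Hsd3b1 and Hsd3b5 could be read alone, and Hsd3b6 could not. Hsd3b1, the form of the adrenal gland and gonads, averaged 2.21, 2.34 and 2.20 in WT, GasKO and hGAS, and Hsd3b5 averaged 1.94 in all 3 genotypes. Both are near background in every group. A gene near background in WT cannot show a fall, so these 2 genes say nothing on a shared decrease.

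Hsd3b7 acts on the oxidised sterols from which bile acids are made. Its probe set 1416968_a_at read 8.07, 8.04 and 8.01 in WT, 7.95, 8.03 and 8.07 in GasKO, and 8.22, 8.41 and 8.20 in hGAS. The hGAS arrays were above both other groups, which overlapped. The difference was -0.025 in GasKO (95% interval -0.18 to 0.13, adjusted p = 0.87) and 0.24 in hGAS (0.08 to 0.39, adjusted p = 0.15). In hGAS against GasKO it was 0.26 (SE 0.07, adjusted p = 0.0321), a call lost without the GasKO replicate 1 (adjusted p = 0.109), 2 (0.0663) or 3 (0.0576), without the hGAS replicate 2 (0.0815) and with a fit to the 6 arrays compared (0.0577).

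**Figure D2:**
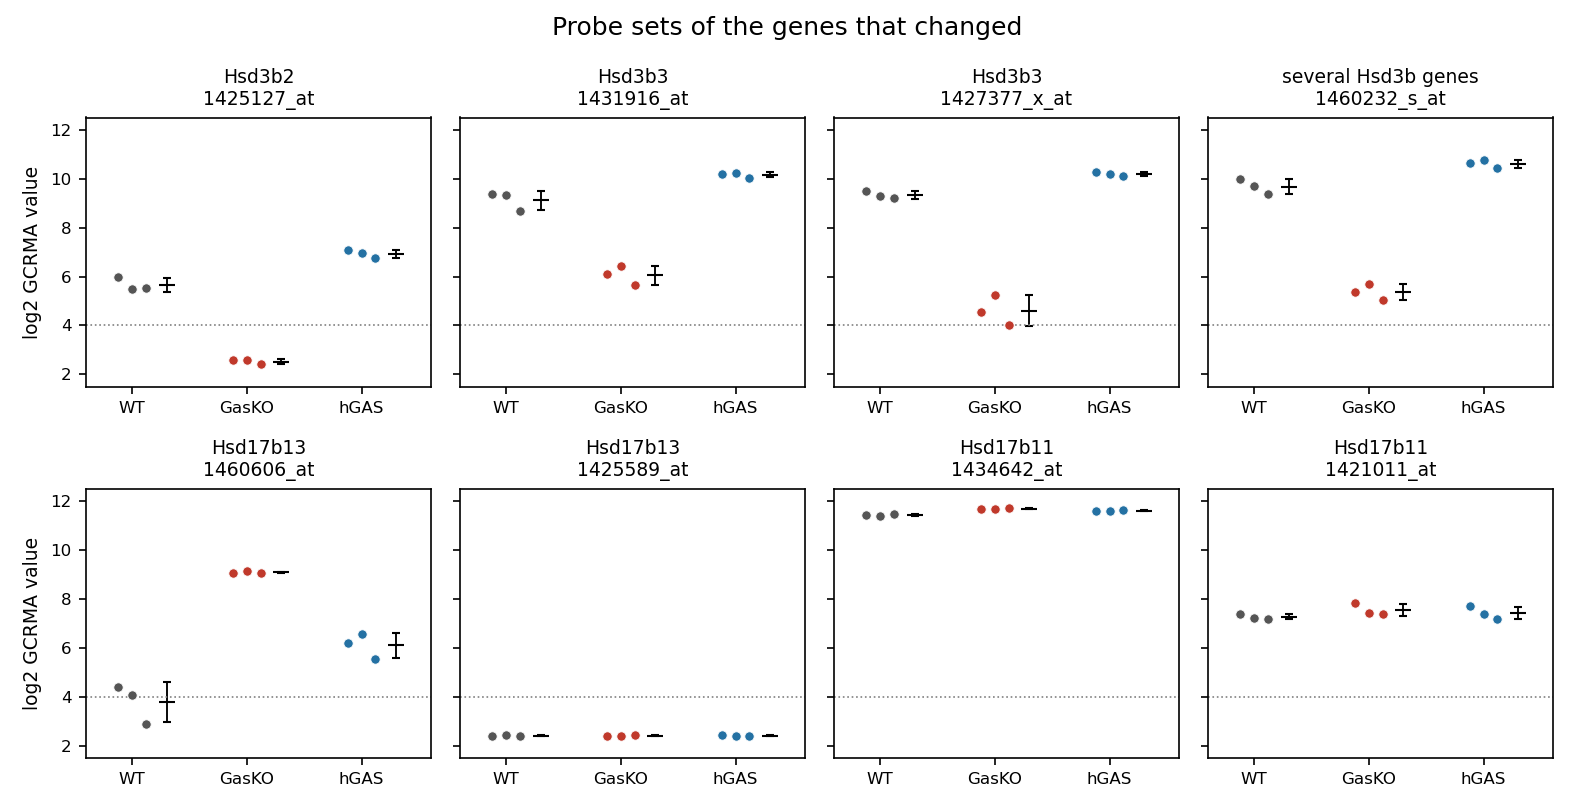
Log2 GCRMA value (vertical axis) of 8 probe sets of Hsd3b2, Hsd3b3, Hsd17b13 and Hsd17b11 in WT, GasKO and hGAS (horizontal axis), with 1 point per array, black bars for the mean ± SD of 3 arrays and a dotted line at log2 4. The 2 Hsd3b3 probe sets and the shared 1460232_s_at keep 1 order of genotypes, while of the Hsd17b13 probe sets 1460606_at changed and 1425589_at stayed near background on all arrays.

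Hsd17b13 encodes a dehydrogenase of lipid droplets that is best known from liver cells. Its probe set 1460606_at read 4.41, 4.08 and 2.87 in WT, 9.06, 9.12 and 9.07 in GasKO, and 6.18, 6.57 and 5.55 in hGAS. The 3 groups did not overlap: every GasKO array was above every hGAS array, and every hGAS array above every WT array. The mean rose from 3.79 ± 0.81 in WT, near background, to 9.08 ± 0.04 in GasKO, a log2 difference of 5.29 (SE 0.37, adjusted p = 1.54e-05). In hGAS it was 6.10 ± 0.52, a log2 difference of 2.31 from WT (SE 0.37, adjusted p = 0.0231).

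Both Hsd17b13 differences depend on how low values are treated. With values under log2 4 set to 4, they were 4.92 in GasKO and 1.94 in hGAS, and averaging the 2 probe sets of the gene gave 2.65 and 1.16, since 1425589_at stayed between 2.39 and 2.43. The call in hGAS was lost without the hGAS replicate 1 (adjusted p = 0.1), without the hGAS replicate 2 (0.0709), without the GasKO replicate 1 (0.0532) or 3 (0.0505), with no filter on low values (0.0581) and with a fit to the 6 arrays compared (0.118).

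Hsd17b11 encodes the closest relative of Hsd17b13, also a lipid droplet protein. Its probe set 1434642_at read 11.43, 11.39 and 11.48 in WT, 11.67, 11.69 and 11.70 in GasKO, and 11.59, 11.61 and 11.63 in hGAS. The difference was small but the arrays of a genotype lay close together, and no groups overlapped. The mean rose from 11.43 ± 0.04 to 11.69 ± 0.02 in GasKO, a log2 difference of 0.25 (SE 0.04, adjusted p = 0.00232). The hGAS mean was 11.61 ± 0.03, a log2 difference of 0.18 from WT (95% interval 0.09 to 0.26, adjusted p = 0.0694). Another probe set, 1421011_at, differed by 0.27 in GasKO with overlapping arrays (adjusted p = 0.28), and 1443059_at was near background. Averaging the probe sets ended the GasKO call, at 0.175 with an adjusted p of 0.0869.

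The nearest measured genes on chromosome 5 moved far less than Hsd17b13. Nudt9, next to Hsd17b11, rose by 0.23 on the log2 scale in GasKO (adjusted p = 0.0403), with a difference of 0.08 in hGAS (adjusted p = 0.63). Its rise in GasKO was about as large as the 0.25 of Hsd17b11 itself. Klhl8 and Aff1, on the other side of Hsd17b13, differed by 0.21 and 0.13 in GasKO (adjusted p = 0.31 and 0.22) and by 0.06 and 0.07 in hGAS (adjusted p = 0.87 and 0.68).

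Hsd17b2 oxidises oestradiol and testosterone to weaker hormones and is a main 17-beta enzyme of gut epithelium. Its probe set 1418352_at read 10.88, 10.92 and 10.77 in WT, 10.80, 10.89 and 10.78 in GasKO, and 10.74, 10.88 and 10.89 in hGAS. The 3 groups overlapped. The difference from WT was -0.03 in GasKO (95% interval -0.16 to 0.10, adjusted p = 0.79) and -0.015 in hGAS (-0.15 to 0.12, adjusted p = 0.94).

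The remaining 4 genes, Hsd17b4, Hsd17b7, Hsd17b10 and Hsd17b12, act mainly on other substrates than steroid hormones, and none passed the test against WT, also at an unadjusted p under 0.05, at the probe set that stands for the gene. Among their other probe sets an unadjusted p under 0.05 against WT was found at 1450010_at of Hsd17b12 and 1448865_at of Hsd17b7 in GasKO and at 1417871_at of Hsd17b7 in hGAS, none of them called after adjustment. Hsd17b4 is the peroxisomal multifunctional protein of beta oxidation, with group means of 9.81, 9.78 and 9.90 in WT, GasKO and hGAS at 1455777_x_at. The differences were -0.03 in GasKO (95% interval -0.19 to 0.12) and 0.09 in hGAS (-0.06 to 0.25). Hsd17b12, the reductase of very long chain fatty acid elongation, averaged 10.61, 10.43 and 10.58 at 1450011_at, with differences of -0.17 (-0.38 to 0.03) and -0.03 (-0.24 to 0.18). At its other probe set, 1450010_at, the GasKO arrays lay below all WT arrays, with a difference of -0.285 (adjusted p = 0.17).

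Hsd17b10 is a mitochondrial enzyme of isoleucine breakdown and a subunit of mitochondrial RNase P. It averaged 10.22, 10.08 and 10.23 at 1448286_at, with differences of -0.14 in GasKO (95% interval -0.29 to 0.01, adjusted p = 0.23) and 0.01 in hGAS (-0.14 to 0.16). Hsd17b7, which reduces a keto group in cholesterol synthesis, averaged 7.74, 7.61 and 7.51 at 1457248_x_at, with differences of -0.12 (-0.41 to 0.17) and -0.22 (-0.52 to 0.07). Its probe set 1417871_at gave -0.22 in GasKO and -0.43 in hGAS, where the hGAS arrays lay below all WT arrays (adjusted p = 0.15). The probe set 1448865_at gave -0.33 and -0.28, and 1440057_at was near background.

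Counted by probe set, 2 of the 17 tested rose and 3 fell in GasKO against WT, where 11.0% of all probe sets were called. In hGAS against WT 2 were called, both higher, where 0.873% were called. In hGAS against GasKO 5 rose and 1 fell, where 14.8% were called. The added calls belong to the second Hsd3b3 probe set and, in the last comparison, to 1417369_at of Hsd17b4, which was 0.17 higher in hGAS (adjusted p = 0.0484).

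**Figure D3:**
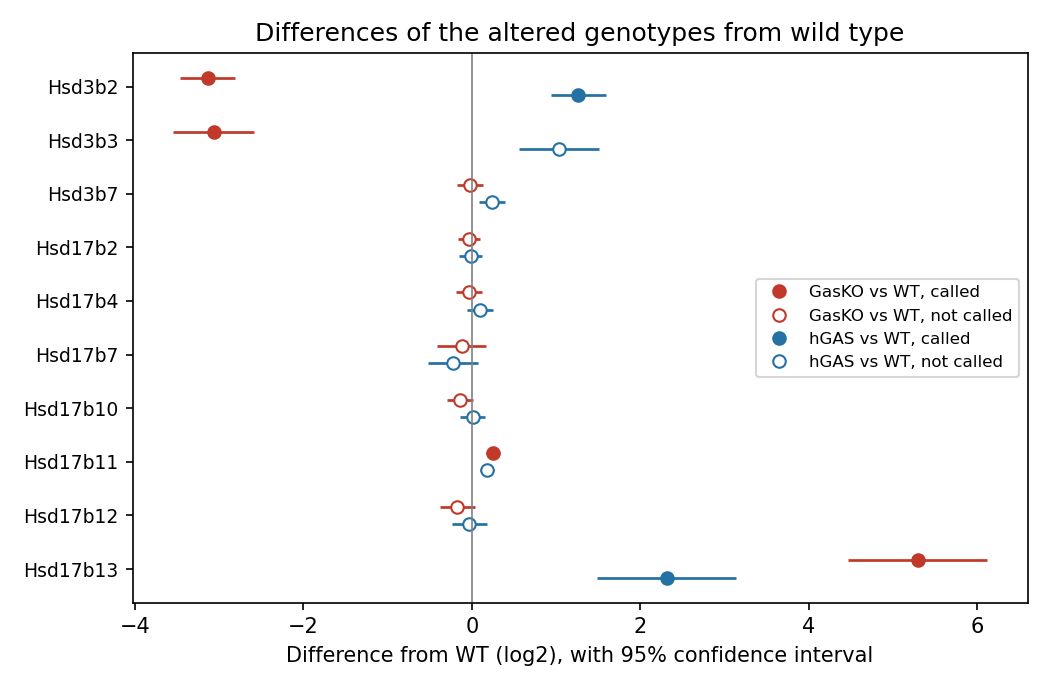
Log2 difference from WT (horizontal axis) of each of the 10 genes (vertical axis) with its 95% confidence interval, in red for GasKO and in blue for hGAS, with filled points for an adjusted p under 0.05. The intervals of Hsd3b2, Hsd3b3, Hsd17b11 and Hsd17b13 exclude 0 in both genotypes, and those of Hsd17b2, Hsd17b4, Hsd17b7, Hsd17b10 and Hsd17b12 include 0 in both.

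The altered genotypes differed from each other most at Hsd3b2, Hsd3b3 and Hsd17b13, whose order by size depends on the background level. Hsd3b2 was 21.1-fold higher in hGAS than in GasKO, with a log2 difference of 4.40 (SE 0.14, adjusted p = 8.78e-08), or 2.93 with values under 4 set to 4. Hsd3b3 was 17.1-fold higher, with a log2 difference of 4.10 (SE 0.21, adjusted p = 2.05e-06). Hsd17b13 went the other way and was 7.89-fold lower in hGAS, with a log2 difference of -2.98 (SE 0.37, adjusted p = 0.000529). Hsd17b11 differed by -0.08 (adjusted p = 0.21). In the F test over the 3 genotypes, adjusted p was 2.41e-07 for Hsd3b2, 4.2e-06 for Hsd3b3, 3.6e-05 for Hsd17b13, 0.00446 for Hsd17b11 and 0.0485 for Hsd3b7, and at least 0.234 for the other 5 genes.

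Among the other hydroxysteroid dehydrogenases and reductases, 13 genes were tested, of which 1 rose and 1 fell in GasKO, where 12.1% of all genes were called. The counts of the lists that follow stand beside the same shares over all genes (12.1% in GasKO and 1.16% in hGAS against WT, 16.6% in hGAS against GasKO), and nothing particular to a list is read from them. Akr1c19, an aldo-keto reductase, fell from 10.54 ± 0.06 to 8.55 ± 0.21 in GasKO, a log2 difference of -1.99 (adjusted p = 1.59e-06), and was 10.94 ± 0.10 in hGAS (adjusted p = 0.0946 against WT). Hsd11b1, which regenerates active glucocorticoid, rose from 5.88 ± 0.16 to 6.61 ± 0.12 (adjusted p = 0.00154). In hGAS against WT 0 of the 13 passed in limma, where an unadjusted p under 0.05 was found for 5 higher and 1 lower.

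The list of steroid hormone synthesis and receptors had 18 genes on the arrays, of which 8 passed the filter and could be tested. Of these 8, 0 passed in any comparison in limma. An unadjusted p under 0.05 against WT was found for 1 in GasKO and 2 in hGAS, all lower than WT. Fdx1, an electron carrier for steroid synthesis, differed by -0.12 in GasKO (adjusted p = 0.15), and the mineralocorticoid receptor gene Nr3c2 by -0.27 in hGAS (adjusted p = 0.082). Star, Cyp11a1, Cyp11b1, Cyp17a1, Cyp21a1 and Nr5a1, which define steroid-producing glands, were all near background in every genotype, with a mean over the 6 genes between 2.40 and 2.46 on each array. Of the bile acid and oxysterol route, 8 genes were tested and 0 passed against WT in limma, with an unadjusted p under 0.05 for 1 lower in GasKO and 2 higher in hGAS. The bile acid receptor gene Nr1h4 was 0.83 higher in hGAS (adjusted p = 0.0598) and 0.87 higher in hGAS than in GasKO (adjusted p = 0.00765). In that last comparison the sterol hydroxylase gene Cyp27a1 was called the other way, at -0.51 (adjusted p = 0.0424).

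The lists around the lipid enzymes were counted in the same way. In cholesterol synthesis, the setting of Hsd17b7, 0 of 20 genes passed against WT in limma, and an unadjusted p under 0.05 was found for 2 in GasKO and 7 in hGAS, all lower. The median difference of the 20 genes was -0.07 in GasKO and -0.22 in hGAS, against 0.01 over all genes in each. Compared with GasKO, 2 of the 20 were lower in hGAS, the regulator gene Srebf2 by 0.21 (adjusted p = 0.0317) and the squalene synthase gene Fdft1 by 0.59 (adjusted p = 0.0487). In peroxisomal beta oxidation, the setting of Hsd17b4, 1 of 17 genes fell in GasKO, the reductase gene Decr2 by 0.55 (adjusted p = 0.00825). In hGAS against WT 0 passed in limma, with an unadjusted p under 0.05 for 6, all higher. In hGAS against GasKO 4 of the 17 rose, among them the lipid receptor gene Ppara by 1.09 (adjusted p = 0.00509). In very long chain fatty acid elongation, the setting of Hsd17b12, 1 of 13 genes fell in GasKO, the elongase gene Elovl6 by 0.47 (adjusted p = 0.0102). There 0 passed in hGAS against WT in limma, with an unadjusted p under 0.05 for 2 higher and 5 lower. Compared with GasKO, Elovl6 was 0.48 higher in hGAS (adjusted p = 0.00768) and the elongase gene Elovl5 differed by -0.20 (adjusted p = 0.0273).

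In the mitochondrial list around Hsd17b10, 2 of 14 genes rose in GasKO, where 12.1% of all genes were called. In hGAS against WT 0 passed in limma, also at an unadjusted p under 0.05. The risen genes were Bcat2, a branched-chain aminotransferase, by 1.80 (5.98 ± 0.10 to 7.77 ± 0.12, adjusted p = 2.51e-06), and Bckdhb, a subunit of the next enzyme, by 0.93 (adjusted p = 4.87e-05). Both act upstream of Hsd17b10, which itself was not called. In the lipid droplet list around Hsd17b11 and Hsd17b13, 0 of 14 genes passed against WT in either genotype in limma, with an unadjusted p under 0.05 for 2 higher in GasKO and for 2 higher and 1 lower in hGAS. The coat protein gene Plin3 differed by 0.21 in GasKO (adjusted p = 0.074). Cidec differed by 1.20, from 4.47 ± 0.60 in WT to 5.67 ± 0.52 in GasKO, with wide spread (adjusted p = 0.12). In hGAS against GasKO Plin2 and Plin3 were lower, by 0.47 and 0.31 (adjusted p = 0.00605 and 0.0119), as was Hsd17b13.

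**Figure D4:**
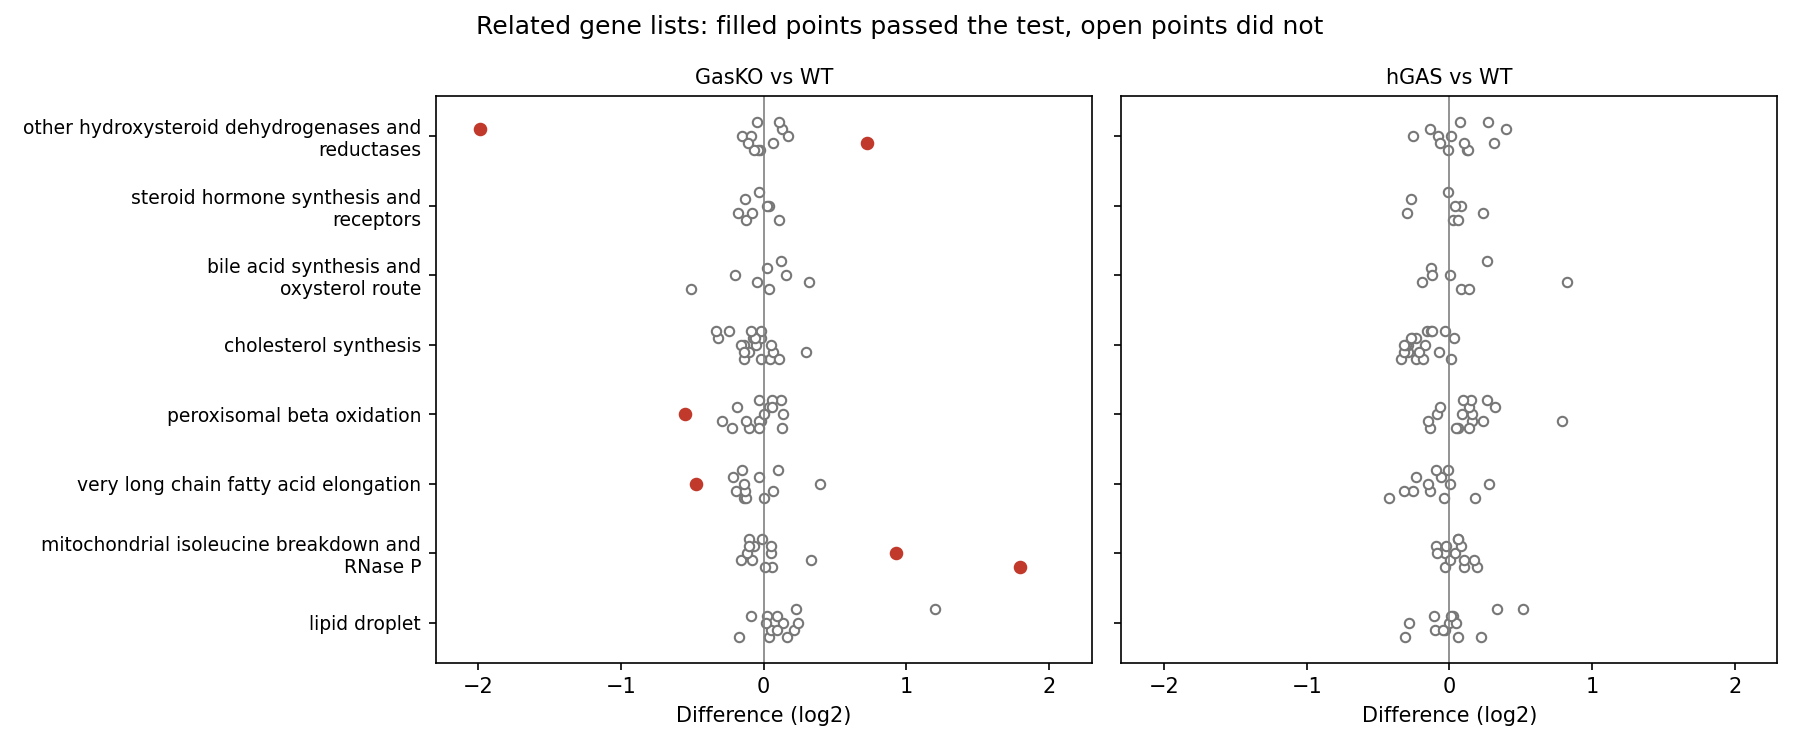
Log2 difference from WT (horizontal axis) of the genes tested in each of the 8 related gene lists (vertical axis), for GasKO on the left and hGAS on the right, with 1 point per gene, filled where called and spread vertically for legibility only. No point is filled for hGAS, and Akr1c19 at -1.99 and Bcat2 at 1.80 in GasKO lie furthest out among the called genes.

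Across the 9 arrays the log2 values of Hsd3b2 and Hsd3b3 had a Pearson correlation of 0.99, those of Hsd17b11 and Hsd17b13 of 0.88, and those of Hsd3b2 and Hsd17b13 of -0.71. These describe mainly the differences among the 3 genotypes. From low to high the order was GasKO, WT, hGAS for Hsd3b2 and Hsd3b3. It was WT, hGAS, GasKO for Hsd17b11 and Hsd17b13. The tested genes most alike to Hsd3b2 were Kpna2 (0.989), Spsb3 (0.988) and Mcee (0.987), and to Hsd3b3 Ccn3 (0.994), Spsb3 (0.988) and Thap4 (0.985). Ccn3 averaged 10.81 in WT, 8.5 in GasKO and 11.39 in hGAS. Most alike to Hsd17b11 were Pkp4 (0.959), Twf2 (0.958) and Pde8a (0.954), and to Hsd17b13 Acer1 (0.973), Guca2b (0.97) and Vcpip1 (0.967). Guca2b, the gene of the gut peptide uroguanylin, averaged 7.19, 8.48 and 7.63. It is also among the absorptive colonocyte genes given below.

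Markers of other cells and gut regions differed between the genotypes beside these genes. Their counts stand beside the shares over all genes, 12.1% in GasKO and 1.16% in hGAS against WT, and 16.6% in hGAS against GasKO. The 5 distal colon markers averaged 8.83 to 8.99 per array in WT, 8.0 to 8.31 in GasKO and 7.95 to 8.12 in hGAS, with 3 of 5 called lower in GasKO and 2 of 5 in hGAS. The 9 small intestine and proximal gut markers averaged 5.49 to 5.94 in WT, 5.66 to 5.76 in GasKO and 6.19 to 6.37 in hGAS, with Apoa1, Apoa4 and Lct near background. Of the 6 tested, 0 passed against WT in limma in either genotype. An unadjusted p under 0.05 was found in hGAS for 2 higher and 1 lower. Compared with GasKO, 3 of the 6 were called higher in hGAS. The 5 B cell and plasma cell markers averaged 6.47 to 7.33, 8.18 to 8.78 and 6.12 to 6.98, with 4 of 5 called higher in GasKO and 2 of 5 called lower in hGAS, Cd79a at -1.76 and Cd79b at -1.58 on the log2 scale (adjusted p = 0.0292 and 0.042). In hGAS against GasKO 3 of the 5 B cell and plasma cell markers were called lower, as was 1 of the 5 distal colon markers. The part of all these markers in the differences of Hsd3b2, Hsd3b3, Hsd17b11 and Hsd17b13 was not tested.

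The part of the remaining lists was not tested either. The 6 enteroendocrine genes averaged 7.26 to 7.39 in WT, 7.12 to 7.32 in GasKO and 7.94 to 8.36 in hGAS, with Cck near background. Of the 5 tested, the peptide hormone gene Nts alone was called in hGAS against WT (adjusted p = 0.00149 in limma). Nts averaged 2.78 ± 0.03 in WT and 2.72 ± 0.05 in GasKO, both near background, and 7.15 ± 0.88 in hGAS. It passed the filter only through the hGAS arrays, where it is high, and the size of its difference depends on the background level. The median difference of the 5 was 0.06. Myeloid genes averaged 7.55 to 7.69, 7.90 to 8.09 and 7.37 to 7.80, with 2 of 5 tested called higher in GasKO. Adipocyte genes averaged 4.55 to 5.66, 5.71 to 6.30 and 4.96 to 5.69, with Lep and Retn near background. Of the 2 adipocyte genes tested 0 passed in limma in any comparison, and both had an unadjusted p under 0.05 in GasKO, Fabp4 at 0.79 higher (adjusted p = 0.066) and Adipoq at 2.04 higher (adjusted p = 0.14). Absorptive colonocyte genes (11.94 to 12.16), goblet cell genes (14.03 to 14.30), smooth muscle genes (13.00 to 13.34) and fibroblast genes (11.63 to 11.87) had array means that overlapped WT in both altered genotypes, over all 9 arrays as given. Of the 7 colonocyte genes 1 rose and 2 fell in GasKO, where 12.1% of all genes were called. The log2 difference was 1.28 for Guca2b, -1.56 for Ceacam20 and -0.31 for Car4 (adjusted p = 4.61e-05, 1.43e-06 and 0.0046 in limma). Large moves in opposite directions thus lie behind the overlapping colonocyte means. In hGAS against WT Car1 was called higher and Car4 lower (adjusted p = 0.016 and 0.0162). In GasKO 1 of the 7 goblet cell genes and 2 of the 6 fibroblast genes were called higher, where 12.1% of all genes were called. In hGAS against WT 0 of either list passed in limma. Compared with GasKO, 3 of the 7 goblet cell, 2 of the 6 fibroblast and 3 of the 5 tested myeloid genes were lower in hGAS. In that comparison 2 of the 7 colonocyte genes were higher and 1 lower, and 2 of the 5 tested enteroendocrine genes were higher. The share over all genes there was 16.6%. All 5 T cell genes were near background, as were Alb, Apoh, Fgb and Cyp8b1 of the 5 liver genes. The remaining liver gene, Ttr, was far above background. Its WT mean was 11.66, and the lower means of GasKO (11.34) and hGAS (11.24) were not called against WT (adjusted p = 0.163 and 0.175 in limma). Hsd17b13 is best known from liver, and the part of these liver genes in its differences was not tested. The Gapdh 3′ minus 5′ control difference, a sign of RNA quality, ran from -0.18 to -0.14 in WT, from -0.12 to -0.09 in GasKO and from -0.15 to -0.07 in hGAS. That of actin ran from 0.76 to 0.89 in WT, from 0.87 to 0.94 in GasKO and from 0.88 to 0.94 in hGAS. The part of RNA quality was not tested.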

How the data were processed

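RNA of colonic mucosa was hybridised to 9 Affymetrix arrays of 45101 probe sets, after Trizol purification and one-cycle cRNA labelling per the labels' protocols. The deposited values are log2 expression made with GCRMA, per the submitters' processing notes, whose version is not stated. GCRMA corrects background by probe sequence, normalises by quantiles and summarises probe sets. Symbols came from the platform annotation: 34945 probe sets had 1 gene, 932 several and 64 were controls.

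For each gene the probe set of highest mean was used. Genes with at least 3 arrays at log2 4 were fitted with limma 3.58.1 in R 4.3.3 (lmFit, then eBayes with trend) on all 9 arrays, with genotype as the only term. Tests were 2-sided, with Benjamini-Hochberg adjustment over all genes, called at an adjusted p under 0.05. A separate fit took the 19822 probe sets with 1 gene that passed the same filter. A further fit over 20385 probe sets, which included those annotated to several genes, gave the tests of 1460232_s_at. The number of arrays limits the precision. A group mean under log2 4 is called near background. The fit was tested on simulated data first.

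Members and gene lists were chosen with earlier results of these data known. All 10 genes are named with each of their probe sets. From each list the rule names up to 4 genes called per comparison with WT by smallest p, or up to 2 where none is called. Not all of the latter are printed. Genes named in hGAS against GasKO and among cell type markers were chosen after their values were seen. The rule adds the 3 genes most correlated with each called member and its nearest neighbours in a RefSeq gene table. Same-numbered replicates of hGAS and GasKO deviated together (correlations of 0.117, 0.201 and 0.267), while in the comparisons with WT at least 1 pair did not reach 0.1. Alternatives covered filters, normalisation, probe sets, eBayes settings, weights, thresholds, the replicate block and each array left out. Promoters were aligned with Biopython 1.88, and figures drawn with matplotlib 3.10.9.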

Additional observations from a re-analysis of the deposited data

How the results depend on the processing

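Each comparison was recomputed under 24 alternatives, 9 of which left out 1 array. Of 717 values of single members, 685 kept their direction and their side of the threshold, 14 lost the call, 5 gained it and 13 changed sign. The last were all of differences near 0 that were not called. With 1 array left out, the log2 difference ran in GasKO vs WT from -0.052 to 0.009 for Hsd3b7, from -0.076 to 0.001 for Hsd17b2 and from -0.088 to 0.022 for Hsd17b4. In hGAS vs WT it ran from -0.060 to 0.033 for Hsd17b2, from -0.054 to 0.071 for Hsd17b10, which was 0 after median centring, and from -0.092 to 0.066 for Hsd17b12. In hGAS vs GasKO it ran from -0.012 to 0.064 for Hsd17b2. The count of called genes in GasKO vs WT, 1366, became 2177 in the fit over probe sets and 674 at an adjusted p under 0.01. That in hGAS vs WT, 131, became 58 with no filter on low values, 21 at an adjusted p under 0.01, 340 under 0.1 and 27 with only the 6 arrays compared. The 2 members called there became 1, 1, 4 and 1 under the same alternatives. In hGAS vs GasKO 1866 became 2928 over probe sets and 898 under 0.01, and the F test gave 2824 and 844. With 1 array left out, the counts ran from 888 to 1375 in GasKO vs WT, 26 to 104 in hGAS vs WT, 1219 to 1996 in hGAS vs GasKO and 1098 to 1750 in the F test, and the members called in hGAS vs WT from 1 to 2.

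With the replicate block the count in hGAS vs WT rose to 283, and Hsd3b3 passed with an adjusted p of 0.007. In GasKO vs WT it was 1557 and in hGAS vs GasKO 2087. Same-numbered arrays correlated at 0.15, -0.006 and 0.145 in GasKO vs WT and at 0.254, 0.084 and 0.203 in hGAS vs WT, and the second number did not correlate best with its own partner in either. The cause of these shifts was not tested. Values near background have no reliable order, which limits Hsd3b2 in GasKO and Hsd17b13 in WT.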
